A study of Mus musculus with 10 samples.

Results

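miR-132 and miR-212 are a pair of microRNAs cut from neighbouring hairpins of one primary transcript. The 4 mature forms, miR-132-3p, miR-132-5p, miR-212-3p and miR-212-5p, were found by name among the 1340 mature miRNAs of the deposited table, and all 4 were present. They were followed through all 10 libraries of small RNA from the RPE/choroid/sclera of the mouse, which are the pigment epithelium, the vascular layer and the fibrous wall behind the retina. The animals were wild-type C57BL/6J mice, an inbred laboratory strain, at postnatal day 34. A goggle holding a -20 dioptre lens, a treatment that induces myopia, had covered one eye of each mouse since postnatal day 24, for 10 days, while the other eye went without. The labels name the left or right eye of each library but not the eye that wore the lens, so the groups are 5 left eyes and 5 right eyes, and neither is a treated or a control group. A left and a right library share each of the numbers 61, 64, 65, 66 and 68 in their titles.

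The transcription factor CREB, which is switched on by neuronal activity, neurotrophins and other signals that raise cyclic AMP or calcium, drives the transcription of this locus. In neurons miR-132 is known for its part in dendrite growth through repression of the GTPase-activating protein p250GAP, and in the suprachiasmatic clock its transcription answers to light. In endothelial cells, miR-132 is induced by angiogenic growth factors and represses the Ras inhibitor p120RasGAP. One arm of each hairpin is loaded into Argonaute more often than the other, and bases 2 to 8 of the loaded strand, the seed, do most of the target recognition.

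The sequences below show what the 4 forms share, with the seed in capitals, 5′ to 3′. They are RefSeq's mature sequences for GRCm38.p6, in which all 4 names were matched.
mmu-miR-132-3p: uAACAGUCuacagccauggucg
mmu-miR-212-3p: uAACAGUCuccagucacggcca
mmu-miR-132-5p: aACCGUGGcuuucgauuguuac
mmu-miR-212-5p: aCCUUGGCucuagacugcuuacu
Both 3p arms carry the seed AACAGUC, and they are the only 2 mature miRNAs in the RefSeq table that do. Their first 9 bases are identical. Counted from the 5′ end, with the base of miR-132-3p first, the 3p arms differ by A10C, C14U, U17C, U20C and G22A, which leaves 17 of 22 bases alike. The 5p arms have different seeds, ACCGUGG in miR-132-5p and CCUUGGC in miR-212-5p, and no other mature miRNA of the table shares either. With miR-132-5p shifted by 1 base, the 5p arms match at 14 of 21 bases.

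Both hairpins lie on the plus strand of chromosome 11 in GRCm38, the build of the deposited coordinates. The mature arms are in capitals in the hairpin sequences, which show where each measured form is cut.
Mir212: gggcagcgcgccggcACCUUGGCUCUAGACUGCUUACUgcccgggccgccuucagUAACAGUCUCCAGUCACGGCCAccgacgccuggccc
Mir132: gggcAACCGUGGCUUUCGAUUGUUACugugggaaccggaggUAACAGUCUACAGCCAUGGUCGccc
Mir212 occupies chr11:75173388-75173478 and Mir132 chr11:75173682-75173747, with 203 bases between them. GENCODE vM21 places both in intron 1 of the non-coding transcript 1700016P03Rik (chr11:75172560-75177633, plus strand). The protein-coding neighbours of the hairpins in RefSeq are Hic1 (chr11:75161377-75170255) and Ovca2 (chr11:75175943-75178808). The span of Ovca2 overlaps that of 1700016P03Rik. miR-212-5p occupies bases 75173403 to 75173425, miR-212-3p 75173443 to 75173464, miR-132-5p 75173686 to 75173707 and miR-132-3p 75173723 to 75173744.

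The values are the authors' normalised signal, whose sum was nearly the same in every library (11878152 to 11879036), so depth is unknown. At each of the 197 ranks from 151 to 347, where the 4 forms lie, the 10 libraries hold values within 2.91% of each other, so a signal here stands for a rank in its library. RPE markers were above 0 in all 10 libraries (3 of 3 in the table, summed signal 1959775 to 1990131). So were both endothelial markers (198138 to 341646) and the 4 fibroblast markers (99605 to 132910). Most of the RPE sum was miR-204-5p, which had one signal of 1931810 in every library. The narrow range of that sum therefore does not measure RPE content. Mean log2(signal + 1) was 20.9 for miR-204-5p and 9.45 for miR-204-3p. Other marker sets varied as well. The surface epithelium sum ran from 24306 in right eye 66 to 243154 in left eye 64. Left eye 68 had the highest striated muscle (104105), smooth muscle (949064) and leukocyte (15649) sums. Most of the smooth muscle sum was miR-143-3p. Its mean log2(signal + 1) was 19.6, against 12.5 for miR-145a-5p and 11.4 for miR-145a-3p. The erythroid sum ran from 25974 in right eye 68 to 59667 in right eye 66. In the neuronal and photoreceptor markers, right eye 68 stood apart. All 8 neuronal and all 3 photoreceptor markers had their highest value there, with a neuronal sum of 48837 against 17791 to 26417 in the other 9 libraries and a photoreceptor sum of 1285111 against 167417 to 448984. Of these 11 markers, miR-137-3p was listed at 0 in 2 libraries and the others in none. In bulk tissue, fewer cells of a type and less RNA per cell cannot be told apart.

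All 4 forms were present at moderate levels in every library, with the 3p arm of miR-132 far above the rest. miR-132-3p had a signal of 994 ± 122 (SD, n = 10), miR-212-3p 185 ± 23.8, miR-132-5p 132 ± 17.5 and miR-212-5p 107 ± 15.2. None was listed at 0 in a library, and all 4 passed the minimum mean signal of 10 set for testing, which 588 miRNAs met. The order of means placed miR-132-3p at 160 of 1340, between miR-3068-3p (1038 ± 130) and miR-485-5p (981 ± 214). miR-212-3p stood at 282, between miR-92a-1-5p (187 ± 45.8) and let-7a-1-3p (184 ± 76.6). miR-132-5p stood at 314, between miR-6238 (133 ± 23.3) and miR-3099-3p (131 ± 60.5), and miR-212-5p at 335, between let-7i-3p (108 ± 18.4) and miR-690 (105 ± 36.7). These neighbours differ from the 4 forms by less than their spread over libraries.

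miR-132-3p, the arm that is mainly loaded in neurons, had a signal of 919 in both eyes of number 61. With the left eye first, number 64 gave 939 and 969, number 65 gave 1159 and 999, number 66 gave 999 and 1025, and number 68 gave 797 and 1221. The lowest and the highest of the 10 values were thus the 2 eyes of number 68, and the left and right groups overlapped. In both eyes of number 61 it ranked 167th, which gave the single value. The highest value, in right eye 68, was in the library with the highest neuronal and photoreceptor markers, and their part in it was not tested.

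miR-212-3p, which shares the seed, had, left eye first, 160.0 and 163 (number 61), 176 and 173 (number 64), 198 and 195 (number 65), 186 and 198 (number 66) and 162 and 238 (number 68). Again right eye 68 was the highest library, while the lowest was left eye 61. Apart from right eye 68, all values lay between 160.0 and 198, and the sides overlapped.

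The 5p arms, which come from the other strand of each hairpin, followed this order of libraries only in part. For both, right eye 68 came next after the highest library and left eye 68 next after the lowest. miR-132-5p had, left eye first, 163 and 135 (number 61), 128 and 132 (number 64), 142 and 106 (number 65), 130.0 and 129 (number 66) and 108 and 152 (number 68). Its highest library was left eye 61 and its lowest right eye 65. miR-212-5p had, in the same order of eyes, 99.3 and 137 (number 61), 115 and 97.7 (number 64), 100.2 and 90.0 (number 65), 103 and 106 (number 66) and 95.7 and 129 (number 68). Its highest library was right eye 61 and its lowest right eye 65.

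**Figure D1:**
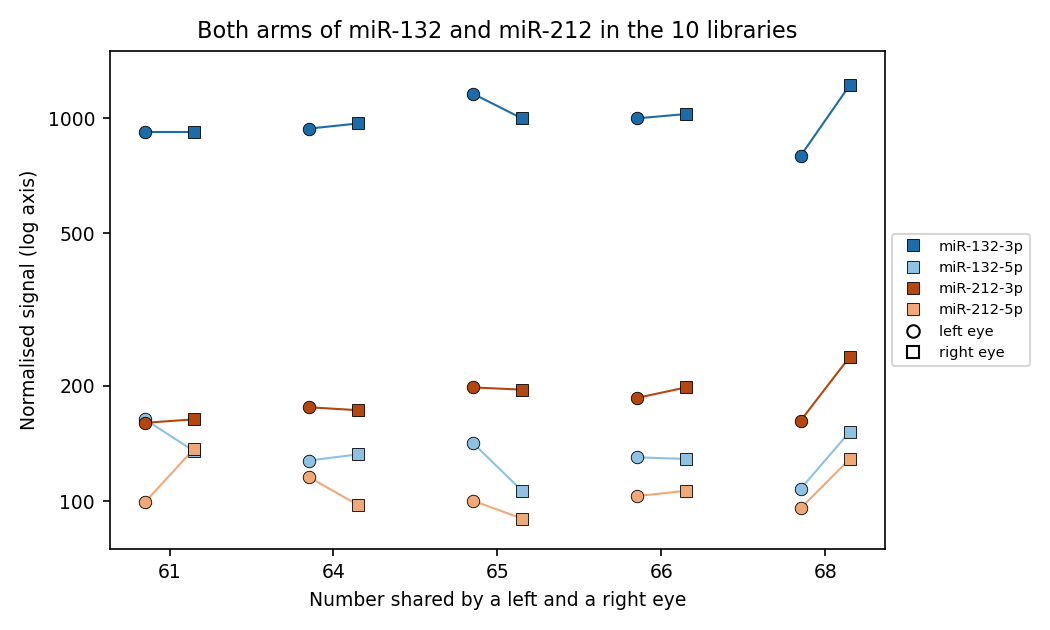
Normalised signal (log axis) of the 4 forms in the left (circle) and right (square) eye of each number, joined by a line within a number. miR-132-3p lies between 797 and 1221, clear of the other 3 forms, which lie between 90.0 and 238, and number 68 has the steepest lines for the 3p arms.

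The order of the levels was clear at the top and close below. miR-132-3p exceeded miR-212-3p in 10 of 10 libraries, by a ratio of 5.39 ± 0.309. miR-212-3p exceeded miR-132-5p in 9 of 10, the exception being left eye 61, where miR-132-5p was 1.02 times miR-212-3p. The lowest miR-212-3p signal, 160.0, lay under the highest miR-132-5p signal, 163. miR-132-5p exceeded miR-212-5p in 9 of 10 libraries, by a ratio of 1.25 ± 0.187, and these 2 ranges overlapped. Of the summed signal of the 4 forms, 1419 ± 156, miR-132-3p held 67.9% to 72.5% and miR-212-3p 11.9% to 14.1%. All 4 mature forms have about the same length, and the cloning efficiency of each sequence is unknown, so these ratios are ratios of signal.

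The first comparison set the right eyes against the left eyes. Not 1 of the 4 forms passed the adjusted threshold of 0.05 in limma, where 0 of the 588 miRNAs passed (0%) and 13 (2.21%) had an unadjusted p under 0.05, none of them one of these 4. miR-132-3p averaged 963 ± 132 in the 5 left eyes and 1026 ± 115 in the 5 right eyes (mean ± SD), a log2 difference of 0.10 with a standard error of 0.13 (limma adjusted p = 0.967). It was higher in 3 right eyes, lower in 1 and tied in 1. The 95% interval ran from 0.869 to 1.32-fold. Without number 68 the direction turned, with a log2 difference of -0.033. Leaving out right eye 68 alone has the same effect in this paired fit.

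miR-212-3p averaged 176 ± 16.02 in the left group and 194 ± 29.0 in the right group, which differ by 0.13 on the log2 scale (SE 0.12, limma adjusted p = 0.967, higher in 3 of 5 right eyes, interval 0.895 to 1.33-fold). Without number 68 the log2 difference was 0.019. Of the 5p arms, miR-132-5p had 134 ± 20.5 and 131 ± 16.3, with a log2 difference of -0.031 (SE 0.15, limma adjusted p = 0.985, lower in 3 of 5 right eyes, interval 0.764 to 1.25-fold). That sign turned when number 61 or number 65 was left out, at 0.030 and 0.064. miR-212-5p had 103 ± 7.56 and 112 ± 20.2, with a log2 difference of 0.11 (SE 0.15, limma adjusted p = 0.967, higher in 3 of 5 right eyes, interval 0.847 to 1.37-fold), and 0.020 without number 61. The intervals of all 4 exclude a doubling or halving between sides, in values whose normalisation draws libraries together. The interval does not bound the effect of the lens, since lens eyes may lie on either side.

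**Figure D2:**
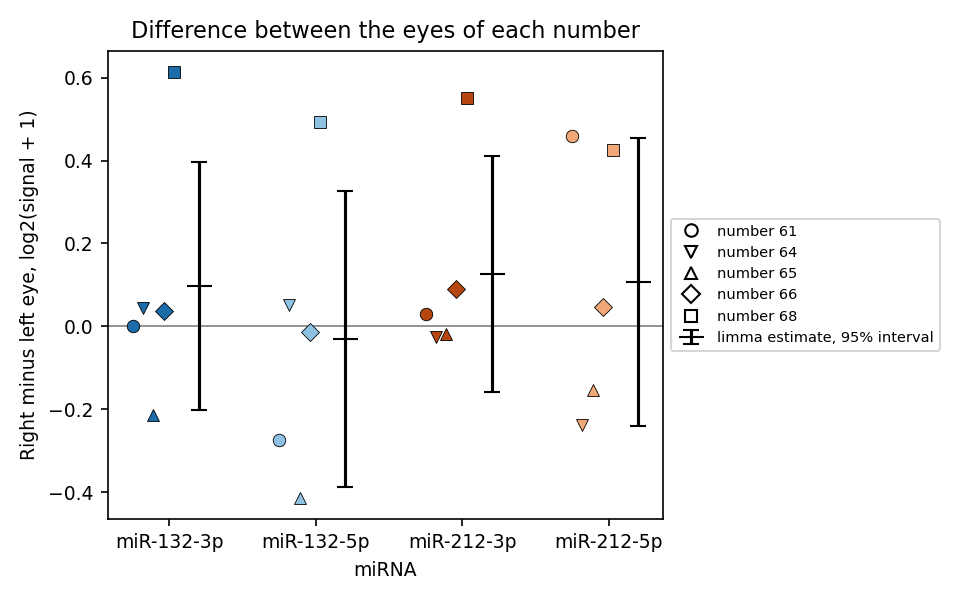
Right minus left difference in log2(signal + 1) for each number (symbols) and the limma estimate with its 95% interval (black) for the 4 forms. All 4 intervals include 0, and number 68 has the highest point for both 3p arms and for miR-132-5p.

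Number 68 was the one number in which all 4 forms moved the same way by more than 0.4 on the log2 scale. Right eye 68 exceeded left eye 68 by 53.1% for miR-132-3p, 46.8% for miR-212-3p, 41.1% for miR-132-5p and 34.6% for miR-212-5p. In number 66 the 4 differences lay between -0.956% and 6.55%. In number 65 all 4 were lower in the right eye, with differences of -25.1% to -1.33%. Numbers 61 and 64 had forms in both directions. In number 68 the neuronal marker sum was 21818 in the left and 48837 in the right eye and the photoreceptor sum 242968 and 1285111. miR-124-3p, a neuronal miRNA, had 2537 and 19089. Over all 11 markers, right eye 68 exceeded left eye 68 by 19.6% (miR-9-3p) to 680.4% (miR-183-5p). Of these 11 gaps, 9 lay above those of all 4 forms, 2 lay below and 0 within their range. The gap of miR-9-5p (53.1%) was above by little, and those of miR-128-3p (33.7%) and miR-9-3p were below. The sum of every other marker set was lower in the right eye of number 68 than in the left. The RPE sum was lower only by little, at 1972116 in the left and 1971088 in the right eye. Since the summed signal of a library is nearly fixed, these falls cannot be read apart from the rise in the photoreceptor sum. The striated muscle sum was 104105 in the left and 50344 in the right eye, and the smooth muscle sum 949064 and 746863. The smooth muscle sum is mostly miR-143-3p, and the part of a shift in rank in its difference was not tested. The part of neural or other tissue in the values of number 68 was not tested.

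The second comparison asked whether the 4 forms differ between the 5 numbers by more than between the 2 eyes of a number. If a number is 1 animal, a lens effect that does not follow side would widen the gaps between eyes and lower F. None of the 4 passed in the limma F-test, in which 7 of 588 miRNAs passed (1.19%) and 137 (23.3%) had an unadjusted p under 0.05, again none of these 4. The F values were 0.37 for miR-132-3p, 0.37 for miR-132-5p, 0.86 for miR-212-3p and 0.44 for miR-212-5p (limma adjusted p = 0.893, 0.893, 0.695 and 0.870 in that order), while the median F of all 588 was 1.96. By rank of p they stood at 540, 541, 451 and 524 of 588. The means of the numbers spanned 0.23 to 0.29 on the log2 scale, and the largest gap between the eyes of one number was 0.46 to 0.61. For both 3p arms the largest gap was that of number 68. Without it, the largest gap was 0.21 for miR-132-3p and 0.091 for miR-212-3p, under the spans of the number means (0.23 and 0.28), and F was 1.11 and 1.81 (limma adjusted p = 0.682 and 0.534). For miR-132-5p and miR-212-5p the largest gap without number 68 was 0.41 and 0.46, above the spans of 0.27 and 0.29.

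The 4 forms were among the steadier miRNAs over the 10 libraries. The SD of log2(signal + 1) was 0.174 for miR-132-3p, 0.177 for miR-212-3p and 0.192 for both 5p arms, where the median of the 588 was 0.336. Only 14.3% to 18.0% of the miRNAs tested had a smaller SD. Among the 100 miRNAs nearest in level, 26 had a smaller SD than miR-132-3p, 12 each than miR-132-5p and miR-212-3p, and 11 than miR-212-5p. The highest value of each form was 1.49 to 1.54 times its lowest.

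**Figure D3:**
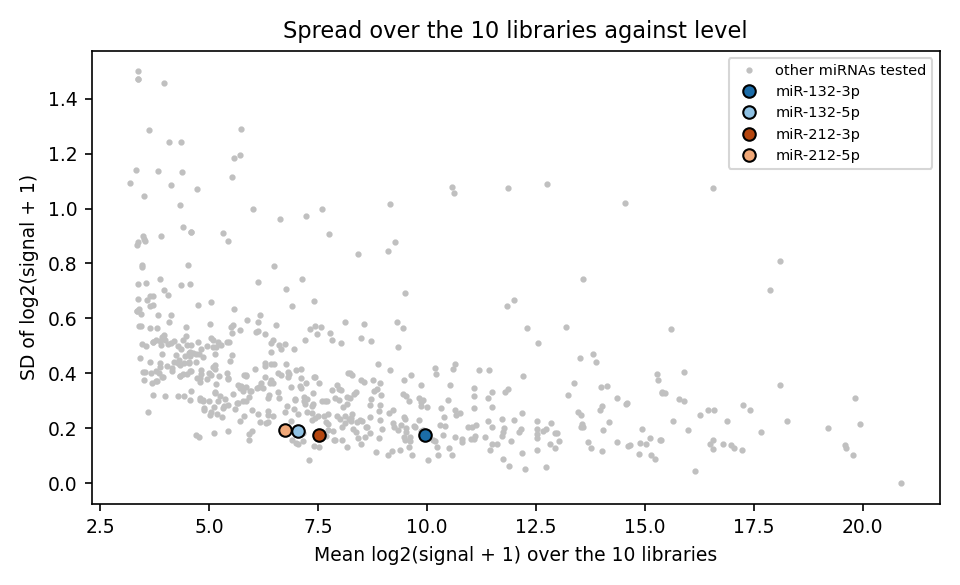
SD of log2(signal + 1) over the 10 libraries against mean log2(signal + 1) for the 588 miRNAs tested, with the 4 forms in colour. The 4 points lie between 0.174 and 0.192, under the median SD of 0.336.

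The 3p arms of the 2 hairpins varied together over the libraries. Of the 587 other miRNAs tested, miR-212-3p was the one most like miR-132-3p by Spearman rho (0.96), by Pearson r (0.89) and by the smallest SD of the log2 ratio (0.0825). The reverse held too, with miR-132-3p the nearest to miR-212-3p on all 3 measures. These are descriptions over 10 libraries that share 5 numbers and one normalisation, and no p is given. Leaving out the 2 libraries farthest from the median of miR-132-3p, which are the eyes of number 68, left rho at 0.96 and r at 0.82, and rho stayed between 0.93 and 0.96 with any one number left out. Each library held between 83.1% and 85.4% of the summed 3p signal as miR-132-3p. The mismatches allowed when reads were assigned are not given in the sources used here, and the part of shared reads in this likeness was not tested.

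The 2 arms of one hairpin were less alike. Between miR-132-5p and miR-132-3p rho was 0.21, and between miR-212-5p and miR-212-3p it was 0.27, near the median of 0.20 over the 157 hairpins with a value. By rho, miR-132-5p stood at 177 among the miRNAs most like miR-132-3p, and miR-212-5p at 160 among those most like miR-212-3p. Among 152 pairs of tested miRNAs with one seed but different sequences the median rho was 0.35. These pairs come from the 502 tested miRNAs with a RefSeq sequence. The 1 pair above the 3p arms here was let-7a-5p with let-7c-5p (0.98), chosen for mention after its value was seen. Just below the 3p arms, let-7c-5p also had a rho of 0.96 with each of let-7b-5p, let-7d-5p and let-7e-5p.

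**Figure D4:**
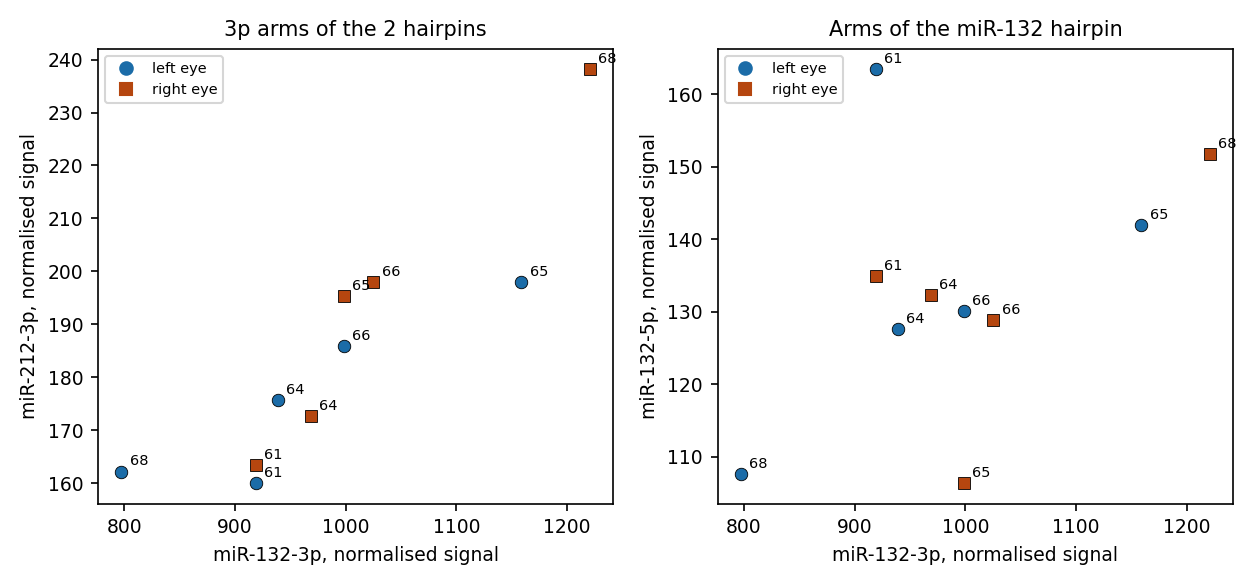
Normalised signal of miR-212-3p (left panel) and miR-132-5p (right panel) against miR-132-3p in the 10 libraries, left eyes as circles and right eyes as squares, with the number beside each point. The 3p arms follow one line (rho 0.96), while the arms of the miR-132 hairpin scatter (rho 0.21).

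After miR-212-3p, the miRNAs most like miR-132-3p were miR-877-3p (rho 0.85, r 0.56), miR-130b-5p (0.80, 0.88), miR-361-3p (0.75, 0.64), miR-30c-5p (0.74, 0.51) and miR-3102-3p.2-3p (0.73, 0.33). For miR-212-3p they were miR-877-3p (0.90, 0.73), miR-30c-5p (0.78, 0.74), miR-361-3p (0.76, 0.66), miR-487b-3p (0.75, 0.87) and miR-15a-5p (0.73, 0.73). Their levels ran from 55.2 ± 23.9 for miR-3102-3p.2-3p to 63160 ± 16701 for miR-30c-5p. miR-130b-5p, miR-487b-3p and miR-15a-5p also had their highest value in right eye 68.

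The third comparison asked whether the choice of arm differs between sides. The miR-132 hairpin gave 7.58 ± 0.976 times more 3p than 5p signal (range 5.62 to 9.39), and the miR-212 hairpin 1.75 ± 0.266 times more (1.19 to 2.17). These ranges do not overlap. The mean log2 5p/3p ratio was -2.90 for miR-132 and -0.78 for miR-212, and among the 158 hairpins with both arms tested 68 favoured the 3p arm and the median was 0.84. In the order from 5p to 3p excess, miR-212 stood at 98, between miR-136 (-0.78) and miR-455 (-0.80), and miR-132 at 118, between miR-342 (-2.80) and miR-331 (-3.05).

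Neither hairpin passed the test for a difference between sides. For miR-132 the left eyes averaged a log2 ratio of -2.84 and the right eyes -2.96, a difference of -0.13 (SE 0.099, limma adjusted p = 0.934), and for miR-212 they averaged -0.77 and -0.79, a difference of -0.018 (SE 0.13, limma adjusted p = 0.974). None of the 158 hairpins passed in limma (0%), and 3 (1.9%) had an unadjusted p under 0.05. The sign for miR-212 turned in 3 of the 5 fits that leave out a number. The 3p arms stood at a ratio of 5.45 ± 0.370 (miR-132-3p over miR-212-3p) in the left group and 5.33 ± 0.263 in the right group. Its mean log2 difference was -0.029 (exact two-sided sign-flip permutation p = 0.6875, 5 pairs), where the smallest p that 5 pairs allow is 0.0625, and without number 65 it was 0.012.

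**Figure D5:**
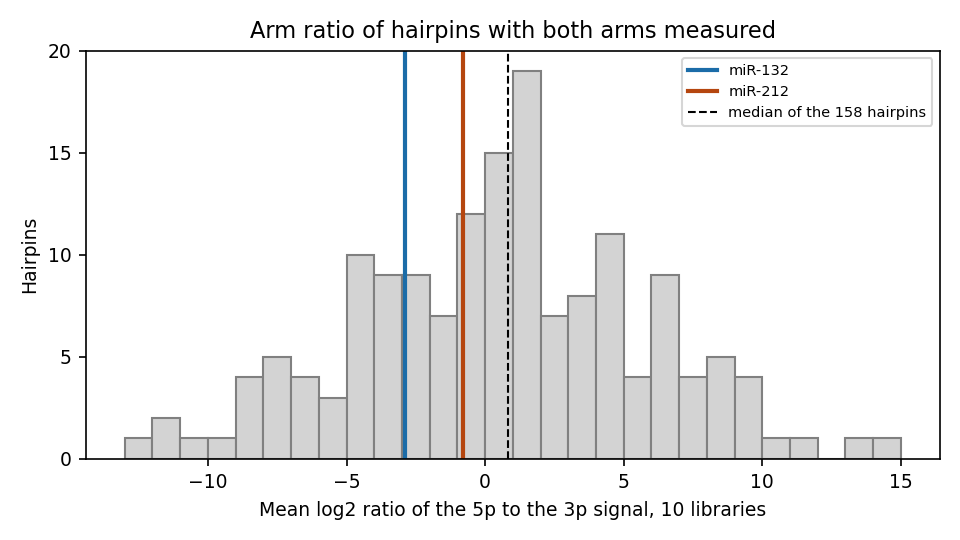
Number of hairpins by mean log2 5p/3p ratio over the 10 libraries, with miR-132 at -2.90, miR-212 at -0.78 and the median of the 158 hairpins at 0.84 (dashed). Both hairpins of the locus lie on the 3p side, miR-132 further out.

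Other miRNAs linked to the same settings were read from 4 lists. Of 9 miRNAs tied to neuronal activity or the circadian clock, 8 were tested, and 4 had a higher and 4 a lower mean in right eyes, with a median log2 difference of -0.01. The most abundant were miR-9-5p (16704 ± 4294, log2 difference 0.30) and miR-124-3p (5023 ± 5243, -0.02), both neuronal, and 4 of the 9 are also among the neuronal markers. Of 5 miRNAs known to follow light in the retina, 3 were higher, 1 was lower and miR-204-5p, with one signal of 1931810 in every library, was tied. Their median was 0.12, which is the value of the photoreceptor miRNA miR-182-5p, and all 5 are also photoreceptor or RPE markers. The higher means rest on number 68: without it, in a comparison added after seeing the data, 0 were higher and 4 lower, with a median of -0.43. The photoreceptor sum was lower in the right eye of 3 numbers, 61, 65 and 66.

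Of 22 miRNAs tied to angiogenesis 21 were tested, 7 higher and 14 lower in right eyes with a median of -0.03. They were led by miR-27b-3p (605912 ± 71087, -0.13) and the endothelial miR-126a-5p (175935 ± 34608, 0.17). Of 8 inflammatory miRNAs 7 were higher and 1 lower, with a median of 0.05, led by miR-21a-5p (24969 ± 2278, 0.03) and miR-146a-5p (7858 ± 987, 0.01). Without number 68 the median was -0.0057 for the activity list, -0.0065 for the angiogenesis list (9 higher, 11 lower, 1 tied) and 0.13 for the inflammatory list (7 higher, 1 lower). The median over all 588 was 0.02, with 319 higher and 267 lower. No member of the 4 lists passed in limma for side (0% of all) or in the F-test between numbers (1.19% of all). The 4 miR-132 and miR-212 forms had a median of 0.10, with 3 higher and 1 lower.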

How the data were processed

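Small RNA libraries of the RPE/choroid/sclera were made with a TruSeq small RNA kit, per the labels' protocols, which speak of retinae where the tissue label does not. Bowtie and Partek were used by the authors on build GRCm38, per the submitters' processing notes. Versions, read filters and the method of normalisation are not given in the sources used here. The deposited values are a normalised signal for 1340 miRNAs in 10 libraries. Only 7.31% of the signal values above 0 are whole within 0.001, so no counts were recovered, depth is unknown, and no counting interval is given. Whether libraries came from separate animals rests on the title numbers alone, and p-values measure the spread between these libraries.

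Signals were analysed as log2(signal + 1), which understates changes of low miRNAs, for the 588 miRNAs with a mean of at least 10. The side effect was fitted with limma 3.58.1 (R 4.3.3), using a trended prior variance and the number as a blocking factor. Tests were two-sided, and p-values were adjusted by Benjamini-Hochberg over all miRNAs. The block follows the protocol, which compares the eyes of an animal. As a check, each eye's deviations from the mean of its side were correlated with those of its numbered partner, giving 0.12, 0.45, 0.01, -0.13 and 0.28, and the own partner was the closest right eye for 2 of 5 left eyes, so the data do not establish the pairing. Numbers were compared by the F-test of the same fit, arm ratios by the same fit over 158 hairpins, and the ratio of the 3p arms by an exact sign-flip permutation. The limma script was tested on simulated data. Named miRNAs are the 4 forms, their neighbours by level, the 5 most like each 3p arm, the 2 most abundant of each list and the neighbouring hairpins by arm ratio. The members and lists were chosen with earlier results of these data known. Sequences are from RefSeq (GRCm38.p6), where the deposited ends are 1 base further on, and the host transcript from GENCODE vM21.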

Additional observations from a re-analysis of the deposited data

Results flagged for a closer look

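In 1 of 14 checks over the sides, a single library was set apart by a wide gap. This was left eye 61 in the arm ratio of miR-132, with a log2 5p/3p value of -2.48 against -3.02 to -2.87 in the other left eyes. The gap was 0.719 of the whole range, above the critical value of 0.71. Chance flags about 1 in 20 such groups of independent, normally distributed values.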

How the results depend on the processing

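None of the 4 forms passed for side or between numbers, and neither hairpin for arm ratio, under other pseudocounts (0.1 and 10), no filter, a minimum mean signal of 100, no trend or any number left out. Nor did the 4 forms with median centring (library medians span 0.021 on the log2 scale), which was not run for the arm ratio. With no replicate block, 0 forms, 0 of 588 miRNAs and 0 hairpins passed for side, and the 3p ratio, whose log2 difference of -0.029 cannot change there, gave an exact permutation p = 0.611. The count of miRNAs differing between numbers, 7, was 23 at a minimum of 100, 0 without trend, 12 with median centring, and 0 to 22 with one number left out. The cause was not tested. With one number left out, 0 to 1 hairpins passed for arm ratio. In those fits the log2 difference ran from -0.033 to 0.17 for miR-132-3p, -0.16 to 0.064 for miR-132-5p, 0.019 to 0.16 for miR-212-3p and 0.020 to 0.19 for miR-212-5p. It ran from -0.054 to 0.012 for the 3p ratio and from -0.13 to 0.031 for the miR-212 arm ratio. Over the settings run, adjusted p for the 4 forms lay between 0.839 and 1 for side and between 0.534 and 0.988 between numbers.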
